A study of Mus musculus with 2 samples.

Results

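A group of 10 miRNA genes that lie inside longer host genes, Mir139, Mir652, Mir191, Mir151, Mir149, Mir342, Mir140, Mir185, Mir425 and Mir186, were followed in the neonatal mouse heart. They are 10 of the 2202 miRNA genes in the count tables, and they were picked by name from those tables for their levels and for having a host gene. Their levels are therefore given as a description, with no test. Of the 10, 9 are among the first 80 genes by level, and Mir186, at rank 172, is not abundant.

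MicroRNA sequencing was done on hearts from female mice aged 10 days (B6CASTF1/J, the name used for a first-generation cross between the inbred strains C57BL/6J and CAST/EiJ). There is 1 group of 2 hearts, biological replicates 1 and 2, with 1 library each, and no treatment, mutation or second tissue. No conditions can be compared: the p-values below set 1 library against the other and measure counting noise only. Gene-strand counts on miRNA genes came to 4260561 in replicate 1 and 4583025 in replicate 2, and levels are given as CPM, each gene's count scaled to this total. The heart muscle genes Mir499, Mir208a and Mir208b, which lie in myosin genes, stood at 4784, 2162 and 1144 CPM (means, n = 2). The neuronal genes Mir124a-1, Mir124a-2, Mir124a-3, Mir9-1 and Mir9-2 had 0 counts and Mir9-3 had 0 and 2. Mir124a and Mir9 are each listed as several gene copies, and reads placed at more than 1 position are not assigned to genes. Their low counts therefore do not show that neuronal miRNAs were absent. The libraries differed in several markers. On the log2 scale, replicate 1 over replicate 2, the erythroid genes Mir144 and Mir451a were at -2.64 and -1.25. The liver gene Mir122 (109 CPM) was at -0.95 and the endothelial Mir126a at -0.74. Heart muscle Mir208a was at 1.05, with Mir499 and Mir208b less apart, at 0.33 and 0.19. Both erythroid genes took 0.0268% of counts in replicate 1 and 0.0750% in replicate 2. In whole tissue, fewer cells of a type and less RNA per cell cannot be told apart.

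As background, a miRNA is cut from a hairpin in a longer transcript, first in the nucleus by Drosha and then in the cytoplasm by Dicer, and pairs with target mRNAs mainly through its seed, the bases near its 5′ end. When the hairpin sits in an intron on the sense strand of another gene, it can be made from that gene's transcript, so its amount can follow the promoter of the host, although some such hairpins have promoters of their own. The table counts reads per hairpin gene and does not separate the 5p arm from the 3p arm.

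The mature sequences below belong to Mir139 and Mir652, the genes with the highest levels of the 10 in both hearts, to Mir191 and Mir425, which share a host, to Mir140, which differed most between the hearts, and to Mir342, for which no difference was detected. They come from RefSeq (GRCm38.p6), are written 5′ to 3′, and have the seed, bases 2 to 8, in capitals.
miR-139-5p: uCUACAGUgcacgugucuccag
miR-139-3p: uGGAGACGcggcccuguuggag
miR-652-5p: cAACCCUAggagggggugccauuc
miR-652-3p: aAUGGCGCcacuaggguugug
miR-191-5p: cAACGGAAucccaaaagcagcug
miR-191-3p: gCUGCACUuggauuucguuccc
miR-425-5p: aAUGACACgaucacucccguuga
miR-425-3p: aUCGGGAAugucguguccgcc
miR-140-3p: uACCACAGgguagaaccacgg
miR-342-3p: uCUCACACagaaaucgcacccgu

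RefSeq gave 16 mature arms for 9 of the 10 genes, and the 16 seeds all differ. Mir151 is not covered, and Mir140 and Mir185 are covered by their 3p arms alone. Of these arms, 12 have a seed that no other mouse gene in that table has, among them both arms of Mir139, Mir652 and Mir191. The other 4 share theirs with genes that were hardly counted. The seed of miR-140-3p is also that of Mir497b (0.226 CPM), that of miR-185-3p is also in Mir7048 (0.235 CPM), and that of miR-425-5p is also in Mir489, listed at 0. For miR-149-3p, 4 other genes have the seed, led by Mir1943 at 1.57 CPM and Mir7016 at 0.688 CPM, with Gm27740 at 0.

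The hairpins are also distinct from other annotated miRNA hairpins, read in the same sense, over longer stretches. Reads placed at more than 1 position are not assigned to genes in these tables, so near-identical copies would lower a count; such reads were 38.9% of all reads in replicate 1 and 38.0% in replicate 2. The longest run of bases that a hairpin of the 10 shares, in the same sense, with any other annotated miRNA hairpin is between 10 and 17 bases. The 17 is Mir151 with Mir28c. The opposite sense and the rest of the genome were not searched. Runs of 22 bases or more, about the length of a mature miRNA, occur in 64 of the 346 detected genes (18.5%) and in 0 of the 10. The 10 were picked for levels that leave out reads placed at more than 1 position. That choice favours hairpins without near-identical copies, so the 0 is a description only. Detected means 10 or more counts in both hearts.

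The hosts were read from GENCODE M21 on mm10. Of the 10 hairpins, 8 lie in introns of protein-coding genes on the same strand, and Mir191 and Mir425 lie in a long noncoding RNA gene. Mir139 (chromosome 7, 101475376 to 101475443, plus strand) is in Pde2a, a phosphodiesterase that breaks down cAMP and cGMP, and in 10 of its 12 annotated transcripts it falls in an intron. Mir652 (chromosome X, 142739000 to 142739097, plus) lies in an intron of Tmem164, which encodes a transmembrane protein. Mir151 (chromosome 15, 73254815 to 73254882, minus) is in Ptk2, the focal adhesion kinase, and Mir149 (chromosome 1, 92850378 to 92850443, plus) in intron 1 of Gpc1, a cell-surface heparan sulfate proteoglycan. Mir342 (chromosome 12, 108658620 to 108658718, plus) is in Evl, a regulator of actin filaments.

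Mir140 (chromosome 8, 107551244 to 107551313, plus) is in an intron of 3 transcripts of Wwp2, a ubiquitin ligase, and within the single exon of a transcript of that gene annotated as a retained intron. Mir185 (chromosome 16, 18327401 to 18327465, minus) is in Tango2, whose loss in people causes a metabolic disorder with heart arrhythmia, and Mir186 (chromosome 3, 157544279 to 157544349, plus) is in Zranb2, an RNA-binding splicing factor. Distances from the 5′ end of the host run from 786 bases for Mir191 to 168398 bases for Mir151, which lies in the host of greatest length, Ptk2 (218179 bases). Mir151 is also overlapped by a gene on the opposite strand that is not a miRNA, the antisense RNA 1700085D07Rik, and a second protein-coding gene model, Gm45837, covers Mir139 together with Pde2a.

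**Figure D1:**
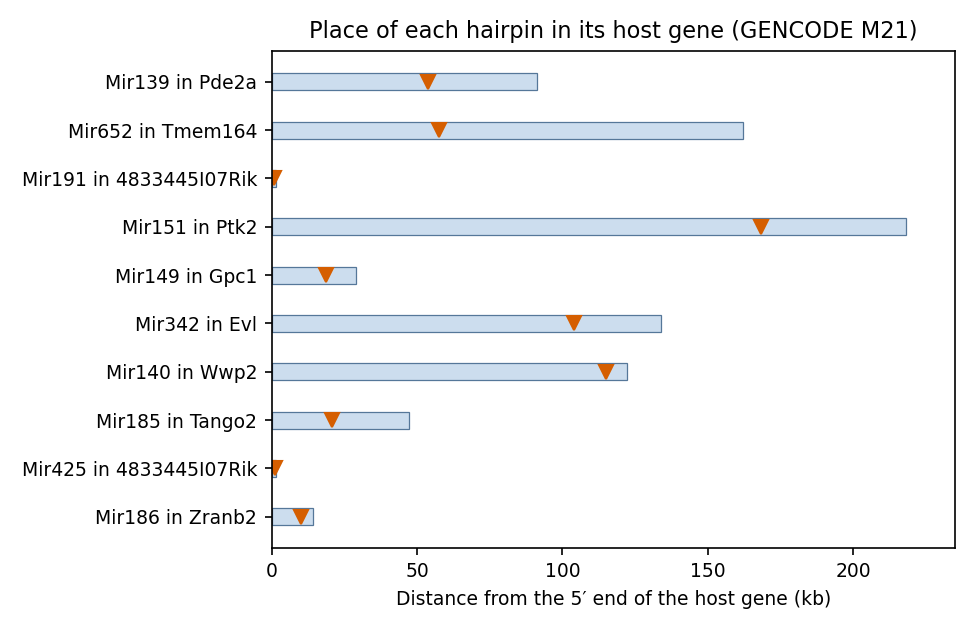
Place of each hairpin in its host gene: bars run from the 5′ end of the host to its 3′ end, in kb along the x axis, and the triangle marks the hairpin's 5′ end. Genes are ordered from the highest mean level at the top; Mir191 and Mir425 share a host of 1642 bases, too short to see at this scale, and Mir151 lies 168398 bases into Ptk2.

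Together the 10 genes took 6.25% of the miRNA gene counts in replicate 1 (exact Clopper-Pearson 95% interval 6.22 to 6.27) and 5.73% in replicate 2 (5.71 to 5.76). These counts leave out reads placed at more than 1 position, so the share among all miRNA reads can be lower. All intervals here reflect counting error alone and treat each read as independent. Reads without molecular identifiers are not independent molecules, so the intervals can be too narrow. Mir139 alone made up 36.8% of the counts of the 10 in replicate 1 and 38.9% in replicate 2, and Mir186 0.124% and 0.166%. All 10 passed the detection minimum. Their median level was 3384 CPM, beside 85.1 CPM over the 346 detected genes, a gap that the choice of the genes set.

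Mir139, a miRNA known for lower levels in several human tumours than in normal tissue, had 98033 counts in replicate 1 and 102294 in replicate 2. That is 23009 and 22320.2 CPM, a mean of 22665 ± 487 CPM (SD, n = 2), at rank 12 and 13 of all miRNA genes. Mir652, on the X chromosome, studied in mice for its part in the heart's response to pressure overload, reached 10820.4 CPM in replicate 1 and 10698.6 CPM in replicate 2 (mean 10760 ± 86.1 CPM, SD, n = 2). Each gene was nearly level between the hearts, and Mir139 exceeded Mir652 by 2.13-fold in replicate 1 and 2.09-fold in replicate 2.

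**Figure D2:**
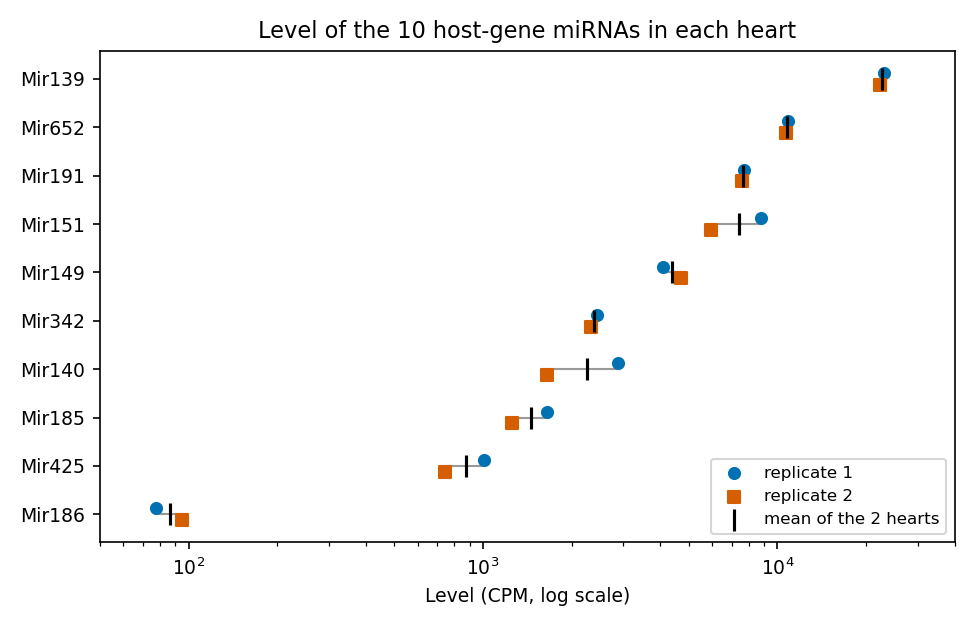
Level of each of the 10 miRNAs in CPM on a log axis: circles are replicate 1, squares replicate 2 and bars the mean of the 2 hearts. Levels run from 22665 CPM for Mir139 to 86.2 CPM for Mir186, and the circle and square lie farthest apart for Mir140 and Mir151.

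Ranges over the 2 hearts separated 6 of the 9 neighbouring pairs in the order of levels. Mir652 (lowest value 10698.6 CPM) lay above Mir191 (highest value 7691 CPM), and Mir425 (lowest 741 CPM) lay above Mir186 (highest 94.9 CPM). The ranges of the other 3 pairs overlapped: Mir191 with Mir151, Mir342 with Mir140, and Mir140 with Mir185. The order of the first 2 of these pairs changed between the hearts. Mir191 was at 0.872 times the level of Mir151 in replicate 1 and at 1.28 times in replicate 2, and Mir342 at 0.849 times the level of Mir140 in replicate 1 and at 1.41 times in replicate 2. Mir140 was above Mir185 in both hearts, by 1.74-fold in replicate 1 and 1.31-fold in replicate 2, and the ranges overlap although the order was the same. Comparisons of different miRNAs also contain differences in how well each sequence is ligated and mapped, which these files cannot separate.

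**Figure D3:**
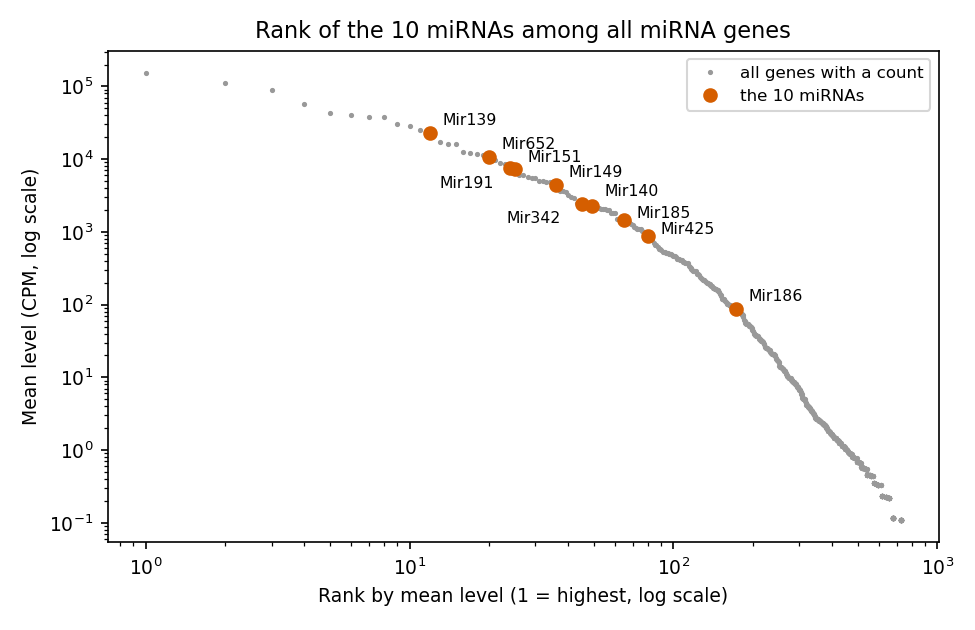
Mean level (CPM, log axis) of every miRNA gene with a count against its rank by mean level (log axis), with the 10 miRNAs as large points. Of the 10, 9 lie among the first 80 ranks, from 12 for Mir139 to 80 for Mir425, and Mir186 is at rank 172.

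Mir191 and Mir425 sit 384 bases apart on the plus strand of chromosome 9, at 108568319 to 108568392 and 108568777 to 108568861. In M21 both fall in 4833445I07Rik, a long noncoding RNA gene of 1642 bases. The gene Dalrd3, which is often given as their host, starts 1024 bases downstream of Mir425 in this annotation. Both hairpins lie in the single exon of transcript 4833445I07Rik-201, and Mir191 also falls in the 303-base intron of transcript 4833445I07Rik-202. Their hairpins (RefSeq, GRCm38.p6, plus strand) are shown because the pair share a transcript and differ in level; the mature arms are in capitals.
Mir191, chr9:108568319-108568392: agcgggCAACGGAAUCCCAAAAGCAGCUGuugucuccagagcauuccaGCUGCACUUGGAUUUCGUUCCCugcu
Mir425, chr9:108568777-108568861: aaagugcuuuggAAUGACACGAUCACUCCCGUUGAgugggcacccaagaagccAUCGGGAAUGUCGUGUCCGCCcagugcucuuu

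Mir191, widely expressed and often used as a reference in miRNA assays, had 32769 counts in replicate 1 and 34854 in replicate 2, or 7691 and 7605 CPM (mean 7648 ± 61.0, SD, n = 2). Mir425, described in human cells as a repressor of the natriuretic peptide gene NPPA, had 4290 and 3397 counts, or 1007 and 741 CPM (mean 874 ± 188, SD, n = 2). Mir191 was therefore the higher of the pair in both hearts, by 7.64-fold in replicate 1, with exact 95% bounds of 7.40 and 7.89, and by 10.3-fold in replicate 2, with bounds of 9.90 and 10.6. The counting intervals of the 2 hearts do not overlap.

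Mir191 is the only gene of the 10 with a miRNA gene annotated against it on the opposite strand. This gene, Gm24083 (chromosome 9, 108568295 to 108568414, minus), had 0 counts on its own strand in both hearts, where a count of 0 allows up to 0.704 CPM in replicate 1 and 0.655 CPM in replicate 2. In the column that ignores strand, the reads of Mir191 are ambiguous and its count is 0 in both hearts. The other 9 genes have the same count with and without strand. None of the 10 had a read on the strand opposite to the gene.

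Among the genes hosted by adhesion and cytoskeleton genes, Mir151, linked in human liver cancer cells to migration together with its host, was at 8819 CPM in replicate 1 and 5955 CPM in replicate 2 (mean 7387 ± 2025 CPM, SD, n = 2). Mir149, in Gpc1, ran the other way, with 4071 CPM in replicate 1 and 4699 CPM in replicate 2 (mean 4385 ± 444 CPM). Mir342, also known from white blood cells, had 2440.3 and 2326 CPM (mean 2383 ± 80.7 CPM). Of these 3 genes Mir342 had the smallest spread for its level, with an SD of 3.39% of the mean, against 27.4% for Mir151 and 10.1% for Mir149.

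Mir140, known best from cartilage, had the widest spread of the 10 for its level, 38.3% of the mean: 2873 CPM in replicate 1 and 1648 CPM in replicate 2 (mean 2261 ± 866 CPM, SD, n = 2). Mir185, known as a regulator of lipid metabolism genes, stood at 1655 CPM in replicate 1 and 1259 CPM in replicate 2 (mean 1457 ± 280.2 CPM). Mir186 was at 77.5 CPM in replicate 1 and 94.9 CPM in replicate 2 (330 and 435 counts, mean 86.2 ± 12.3 CPM). With ranks of 176 and 165, Mir186 is close to the median of all detected genes, 85.1 CPM, rather than among the abundant genes.

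Differences between the hearts were given as log2 ratios of replicate 1 over replicate 2, scaled by trimmed mean of M values (TMM) factors, and tested for each gene with an exact two-sided binomial test with Benjamini-Hochberg adjustment over 375 genes. Past an adjusted p of 0.05 lay 9 of the 10 genes, 4 higher in replicate 1 and 5 higher in replicate 2. Over all tested genes the shares were 55.2% in either direction, 29.1% higher in replicate 1 and 26.1% higher in replicate 2. Among the 5, the direction of Mir139, Mir652 and Mir191 depended on the scaling. Small differences pass this test at high counts: of the 100 genes with the highest levels, 89 passed. None of the 10 was 2-fold or more apart, beside 11.7% of all tested genes and 7 of the 100 genes with the highest levels. The median size of the log2 ratio was 0.30 over the 10, 0.37 over all tested genes and 0.26 over the 100 genes with the highest levels.

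The 4 genes higher in replicate 1 were Mir140, Mir151, Mir425 and Mir185. Mir140 had a log2 ratio of 0.74 (exact 95% interval 0.69 to 0.78), which is 1.66-fold, and Mir151 one of 0.50 (0.48 to 0.52), which is 1.41-fold. Smaller ratios were measured for Mir425, at 0.38 (0.31 to 0.44), and Mir185, at 0.33 (0.28 to 0.38). Replicate 1 was also the heart with more of the heart muscle genes Mir208a, Mir208b and Mir499, whose summed share was 0.964% of counts in replicate 1 and 0.654% in replicate 2, and all 3 passed the test. Of the 2 smooth muscle genes, Mir143 was higher in replicate 1 (log2 ratio 0.54), and Mir145a did not pass, at 0.02 (exact 95% interval -0.02 to 0.06). The part of these marker genes in the 4 differences was not tested.

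Of the 5 genes higher in replicate 2, Mir149 and Mir186 showed the larger differences. Mir149 had a log2 ratio of -0.27 (exact 95% interval -0.30 to -0.24), a level 1.21-fold higher in replicate 2, and Mir186 one of -0.36 (-0.57 to -0.15), 1.28-fold higher, with adjusted p = 0.00154 in the exact binomial test. The remaining 3, Mir139 (-0.02), Mir652 (-0.05) and Mir191 (-0.05), lay within 1.04-fold. Their direction depends on the scaling: with total counts in place of TMM the log2 ratios were 0.04, 0.02 and 0.02, and the calls of Mir652 and Mir191 were lost, while leaving out Mir378a, the gene with the highest level, ended the call of Mir139 (-0.01, adjusted p = 0.464, exact binomial test).

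Mir342 was the gene that did not pass, with a log2 ratio of 0.00 (exact 95% interval -0.04 to 0.04, adjusted p = 0.938 in the exact binomial test). It passed with total counts, at 0.07, and stood at -0.04 with DESeq2 size factors, not past the test. Of the 4 white blood cell genes, Mir155 and Mir142 were higher in replicate 2 (log2 ratios -0.24 and -0.33), and Mir150 (0.06) and Mir223 (-0.12) did not pass. The 4 together took 0.230% of counts in replicate 1 and 0.245% in replicate 2, and their part in the level of Mir342 was not tested.

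**Figure D4:**
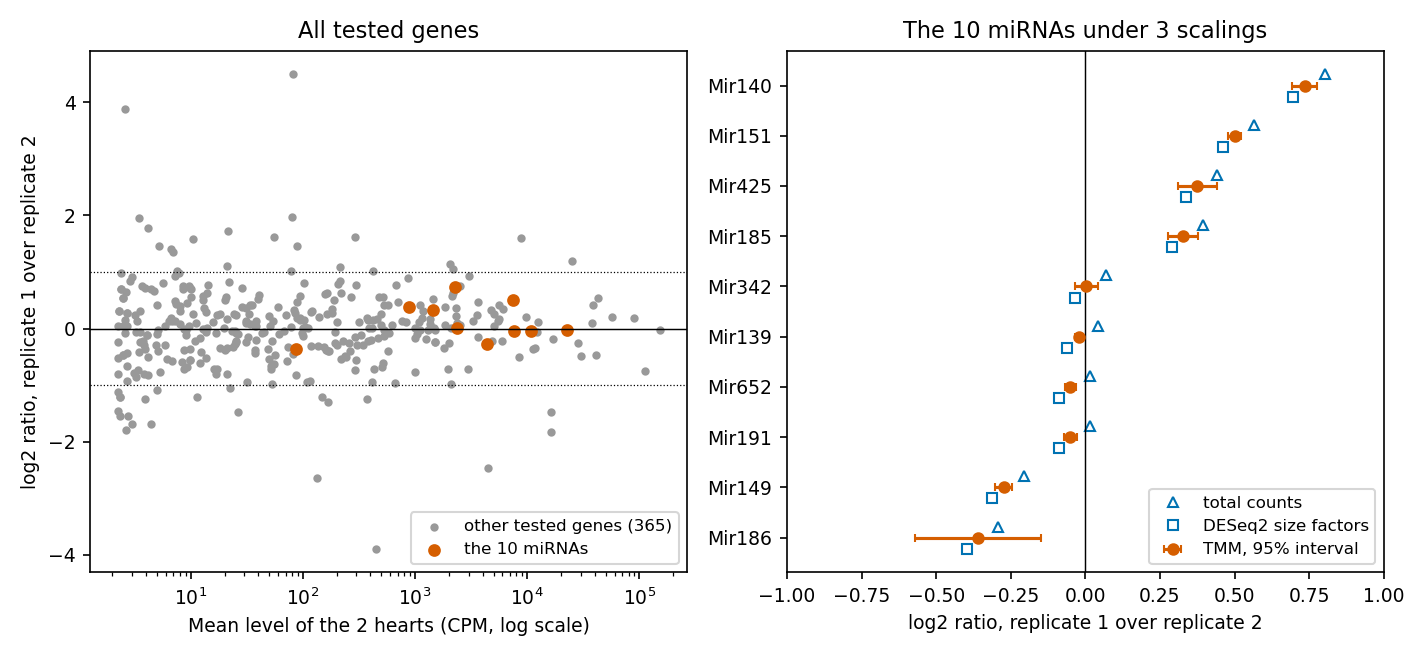
Left, log2 ratio of replicate 1 over replicate 2 against mean level (CPM, log axis) for all tested genes, with the 10 miRNAs as large points and dotted lines at 2-fold. Right, the 10 miRNAs with exact 95% intervals under TMM scaling and with values under total counts (triangles) and DESeq2 size factors (squares): Mir140, Mir151, Mir425 and Mir185 stay above 0 and Mir149 and Mir186 below 0 under all 3, while Mir139, Mir652, Mir191 and Mir342 change side.

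A list of other miRNAs known for lying in protein-coding genes, chosen with earlier results of these data known, was set beside these differences. Of its 45 genes 42 were found in the tables, and 34 of the 42 passed the test, 18 higher in replicate 1 and 16 higher in replicate 2, with 3 that were 2-fold or more apart and a median log2 ratio of 0.07 against 0.02 over all tested genes. For the 10 genes the median was -0.01. The list does not stand for host-gene miRNAs in general, since its detected genes had a high median level, 532 CPM. A class made without such a choice is every gene outside the 10 with a protein-coding host on its strand. There the test was passed by 94 genes out of 181 (51.9%), close to the 55.2% over all tested genes. A gap of 2-fold or more was seen for 26, and the median level of the detected genes was 73.7 CPM. In M21, Mir328 of that list lies only on the strand opposite to its host, and Mir126a, Mir208a, Mir208b and Mir499 are also among the cell type markers. The 5 genes of that list with the highest levels were Mir378a (152441 CPM), Mir126a (112091 CPM), Mirlet7g (57357 CPM), Mir26b (16962 CPM) and Mir335 (9743 CPM). Only Mir139 and Mir652 of the 10 exceeded Mir335. The log2 ratios of these 5 were -0.03, -0.74, 0.20, -0.19 and 0.21 in the same order.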

How the data were processed

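The authors deposited raw read counts per miRNA gene, 1 table per library. The build, mm10, is given per the labels, and the annotation, GENCODE M21, in a description file deposited with each library; neither names an aligner or counter. The tables have no header line. Their 3 count columns were read, from their values, as strand-blind, sense and antisense counts, and the sense counts were used. Category rows (unmapped, multimapping, outside features, ambiguous) held 60.5% of reads in replicate 1 and 55.1% in replicate 2 and were left out of library sizes. Library totals, CPM and shares were computed over gene counts.

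Ratios used TMM factors (edgeR 4.0.16, R 4.3.3), a prior count of 0.5 and an exact binomial test on genes whose 2 counts summed to at least 20. The test was tried on simulated counts that held counting noise but no spread between animals. That trial therefore cannot show how its calls hold between hearts. DESeq2 1.42.0 gave the alternative size factors. Hosts came from M21, sequences from RefSeq, and hairpin folding from ViennaRNA 2.7.2; Python 3.11.15, numpy 2.4.6, pandas 2.3.3, scipy 1.17.1 and matplotlib 3.10.9 were used. Named genes were the 10, genes next to them in level, genes sharing a seed, the 5 leading genes of the host list and cell type markers. Members and lists were chosen with earlier results of these data known. Alternatives were the unstranded column, other scalings, denominators, count minimums and prior counts, and leaving out Mir378a or a replicate. The labels give the 2 hearts separate biosamples.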

Additional observations from a re-analysis of the deposited data

How the results depend on the processing

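Of 49 ratios of single genes under other settings, 43 kept their direction and side of the threshold. With total counts the log2 ratios of Mir139, Mir652 and Mir191 were 0.044, 0.016 and 0.016, opposite to the TMM values, and with DESeq2 size factors that of Mir342 was -0.036. The share of the 10 genes was 7.42% without strand, where Mir191 has no count, and 7.07% without Mir378a, since each has a smaller denominator. A 2-fold rule in place of the adjusted p gave 0 of the 10 and 44 of all genes. Other settings gave 8 or 9 of the 10 past the test, and without strand 8 of the 9 that could be tested. Leaving out a replicate gave shares from 5.73% to 6.25% and log2 ratios of Mir191 over Mir425 from 2.93 to 3.36. Of 40 levels under other denominators or strand, 26 moved by more than 1 SD; with all reads as the denominator all 10 were lower, Mir139 at 9559.5 in place of 22665 CPM and Mir186 at 36.6 in place of 86.2 CPM. The unstranded ratio of Mir191 over Mir425 could not be given, as Mir191 has 0 counts there. No paired analysis was possible because a single group was sequenced. With 2 hearts, spread between animals is known poorly, and depth limits Mir186 most.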

Other observations

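The folding of the hairpins was not used to choose the genes, but their levels were, so the values here are a description. The predicted minimum free energy per base had a median of -0.51 kcal/mol over the 10 hairpins and -0.44 kcal/mol over the 346 detected ones. Among the 10 it ran from -0.61 for Mir151 to -0.37 for Mir425. The 10 hairpins were also shorter, with a median length of 70.5 bases against 84. Without division by length, the median energy was -36.95 kcal/mol over the 10 and -36.7 kcal/mol over all detected. The G and C content had a median of 54.1% over the 10 and 51.1% over all detected, from 33.8% for Mir186, the gene with the lowest level, to 68.2% for Mir149.

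Genes next to the 10 in level give a scale for their spread. Mir139 lay between Mirlet7d (24985 ± 14625 CPM, SD, n = 2) and Mir26b (16962 ± 1006 CPM), and Mir652 between Mir125a (11268 ± 1655 CPM) and Mir335 (9743 ± 1304 CPM). Mir191 and Mir151 lay between Mir30e (8509 CPM) and Mir351 (6121 CPM), and Mir149 between Mir195a (4475 ± 4315 CPM) and Mir28a (3649 ± 154 CPM). Around Mir342 and Mir140 were Mir34a (2506 CPM), Mir324 (2372 CPM), Mir181d (2295 CPM) and Mir320 (2181 CPM), and around Mir185 Mir541 (1463 CPM) and Mir455 (1454 CPM). Mir425 followed Mirlet7c-2 (988 CPM) and preceded Mir221 (868 CPM), and Mir186 stood between Mir1843b (86.8 CPM) and Mir345 (86.0 CPM). Against both neighbours the SD was lower for Mir139, Mir652, Mir191, Mir342 and Mir186 and higher for Mir151 (2025 CPM, against 1814 for Mir30e and 1246 for Mir351) and Mir140 (866 CPM, against 323 for Mir181d and 739 for Mir320). For Mir149, Mir185 and Mir425 it lay between those of the neighbours. Each SD rests on 2 values, so this order is a description, and the SD of Mir186 (12.3 CPM) was near that of Mir345 (12.7 CPM).

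On chromosome 16, Mir1306 lies 43083 bases from Mir185 on the same strand, outside Tango2, and had 963 counts in replicate 1 and 1651 in replicate 2, the opposite direction to Mir185, which had 7053 and 5771.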
